A study of Homo sapiens with 27 samples.

Results

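Claudins are the membrane proteins that form the strands of the tight junction. RNA-seq values were examined for 10 claudin genes, CLDN1, CLDN3, CLDN4, CLDN6, CLDN7, CLDN11, CLDN12, CLDN15, CLDN16 and CLDN23, chosen by name out of the 24 claudin genes among 57165 gene rows. The 27 libraries came from SUM159 and MDA-MB-231, human triple negative breast cancer (TNBC) cell lines that serve as models of the claudin-low subtype. Each line had untransduced wild type (WT) cells and transduced ones. The transduced cells carried a lentiviral vector for dCas9-KRAB, either without a guide RNA (No gRNA) or with guides that target the ZEB1 promoter, as gRNA 4 or as 4 gRNAs pooled (All gRNA). dCas9 is a Cas9 that binds DNA without cutting it, and KRAB is a repressor domain that silences the promoter it is brought to. All transduced cells had been selected with puromycin, and the methods call the replicates individual clones, so p-values measure the spread between such samples. Each of the 9 groups had 3 libraries. For 6 MDA-MB-231 libraries the sample title and the data column name opposite gRNAs. They are called set 1 (title gRNA 4, column pool) and set 2 (title pool, column gRNA 4), both carry gRNAs against ZEB1, and neither was assigned to a gRNA. Run 1 and run 2 stand for the prefixes B1 and B2 of the data columns, and only 3 sample titles name run 2. Run 1 held SUM159, and run 2 held MDA-MB-231 with 3 further SUM159 WT libraries, those titled run 2. Line and run therefore cannot be told apart for transduced cells. The titles and columns do not say what differed between the runs.

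Each claudin loops through the membrane and pairs with claudins of the neighbouring cell, and the mix of claudins sets which ions pass between epithelial cells. CLDN1, CLDN3, CLDN4 and CLDN7 are counted among the sealing claudins of epithelia, while CLDN15 forms a channel for cations and CLDN16 is known for magnesium reabsorption in the kidney. Low CLDN3, CLDN4 and CLDN7 gave the claudin-low subtype of breast cancer its name. ZEB1 is a zinc finger repressor that binds E-boxes in the promoters of epithelial genes, and its silencing is used to move mesenchymal cells towards an epithelial state.

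Library totals ran from 15461200 to 21473757 estimated counts. Levels are given as CPM, the counts of a gene relative to the library total after scaling by the trimmed mean of M values (TMM), and 3 counts, the floor below which a level was not read, correspond to 0.143 to 0.192 CPM. The targeted gene followed the labels in both lines. ZEB1 was at 70.7 to 77.3 CPM in SUM159 No gRNA cells, at 2.57 to 4.56 with gRNA 4 and at 0.375 to 1.02 with All gRNA, and at 104 to 122 in MDA-MB-231 No gRNA cells against 3.70 to 5.74 in the 2 sets. Of the markers of TNBC lines, VIM, CD44, KRT8 and KRT18 were present in every library, and the estrogen receptor gene ESR1 did not exceed 0.185 CPM. PTPRC, a leukocyte gene, stayed at or under 0.294 CPM and ALB, a liver gene, at or under 0.513 CPM. The progesterone receptor gene PGR reached 0.959 CPM in 1 MDA-MB-231 No gRNA library. ERBB2 was at 38.1 to 72.1 CPM and the endothelial gene PECAM1 at 0.382 to 7.93 CPM. PECAM1 was higher in the targeted SUM159 libraries (4.32 to 7.93 CPM) than with No gRNA (1.18 to 3.74 CPM), and its part in the results was not tested.

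Promoters are shown because the repressor silenced in these cells binds E-boxes. They are those of CLDN7, CLDN3 and CLDN4, whose low levels gave the subtype its name, and of CLDN1. E-boxes of other members are given by count. Each sequence is the RefSeq promoter (GRCh38.p14) from 250 bases before to 50 bases after the start of the canonical transcript, read 5′ to 3′ on the strand of the gene. Capitals mark the 6-base E-box CACCTG or its reverse complement CAGGTG, the form bound by ZEB1 and SNAI proteins.
CLDN7, chr17:7262429-7262728, minus strand: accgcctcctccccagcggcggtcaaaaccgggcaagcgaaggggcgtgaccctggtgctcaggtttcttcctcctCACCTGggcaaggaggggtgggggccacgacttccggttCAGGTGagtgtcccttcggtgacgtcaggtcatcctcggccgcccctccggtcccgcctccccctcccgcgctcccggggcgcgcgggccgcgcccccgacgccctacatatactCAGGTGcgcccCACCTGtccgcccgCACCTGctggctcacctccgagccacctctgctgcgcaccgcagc
CLDN3, chr7:73770221-73770520, minus strand: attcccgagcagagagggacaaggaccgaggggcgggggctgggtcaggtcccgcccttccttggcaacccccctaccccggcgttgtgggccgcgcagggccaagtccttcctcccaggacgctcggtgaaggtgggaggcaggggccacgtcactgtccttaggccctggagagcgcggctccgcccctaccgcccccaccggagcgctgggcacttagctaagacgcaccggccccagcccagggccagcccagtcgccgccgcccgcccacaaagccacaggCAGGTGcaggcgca
CLDN4, chr7:73830746-73831045, plus strand: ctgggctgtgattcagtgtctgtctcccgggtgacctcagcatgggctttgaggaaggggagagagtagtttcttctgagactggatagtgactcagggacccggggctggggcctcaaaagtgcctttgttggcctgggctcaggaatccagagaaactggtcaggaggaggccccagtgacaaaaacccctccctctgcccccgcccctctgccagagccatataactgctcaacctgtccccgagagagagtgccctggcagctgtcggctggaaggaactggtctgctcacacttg
CLDN1, chr3:190322397-190322696, minus strand: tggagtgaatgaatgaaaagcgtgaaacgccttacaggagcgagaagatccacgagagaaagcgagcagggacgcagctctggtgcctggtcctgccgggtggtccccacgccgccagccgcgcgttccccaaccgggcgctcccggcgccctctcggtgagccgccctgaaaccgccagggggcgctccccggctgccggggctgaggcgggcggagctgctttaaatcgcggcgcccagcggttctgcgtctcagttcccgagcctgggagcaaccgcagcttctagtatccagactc
The genes are ENSG00000181885 (CLDN7), ENSG00000165215 (CLDN3), ENSG00000189143 (CLDN4) and ENSG00000163347 (CLDN1).
The CLDN7 promoter held 5 of these E-boxes, with first bases at -174, -135, -20, -9 and 6 from the start site, where 1 is the first transcribed base. Of 35116 promoters of this length, 20.6% held at least 1 and 33 (0.0940%) held 5 or more. CLDN3, CLDN6 and CLDN16 had 1 each, at 37, 33 and 21, after the start site. CLDN1, CLDN4, CLDN11, CLDN12 and CLDN15 had none in this window, so that 4 of the 9 members examined had 1 or more. The CLDN23 promoter was not examined. The second annotated promoters of CLDN7, CLDN11 and CLDN16 had none. A match is a run of letters and not a measured site.

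**Figure D1:**
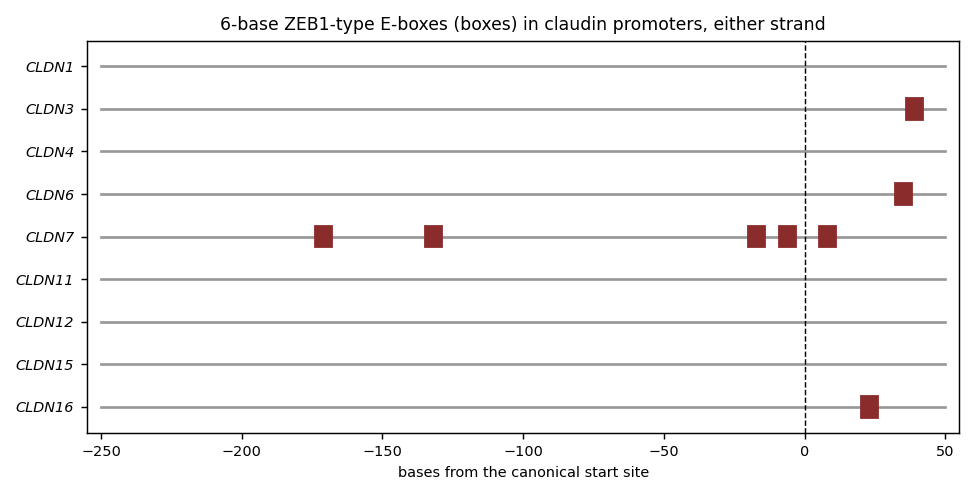
E-box matches (boxes, 6 bases wide) in the canonical promoters of 9 claudins (CLDN23 was not examined), by distance in bases from the start site (dashed line). CLDN7 has 5 matches, CLDN3, CLDN6 and CLDN16 have 1 each, and the other 5 lines are empty.

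Genes were tested with voom-limma within each line. A gene was called when TREAT, which tests against a log2 fold change of 1, gave an adjusted p under 0.05. Below, rose and fell mean that the same fit passed limma's moderated test against 0 at that adjusted p, and adjusted p-values are from that test unless TREAT is named. A filter on low counts left 4 of the 10 members in SUM159 (CLDN1, CLDN4, CLDN12 and CLDN15) and 8 in MDA-MB-231 (these with CLDN3, CLDN7, CLDN16 and CLDN23), while CLDN6 and CLDN11 were too low to test in either line. Against No gRNA, TREAT called 0 members in SUM159 All gRNA, where it called 0.396% of all genes, 0 with gRNA 4 (0.390%), 0 in MDA-MB-231 set 1 (1.47%) and 1, CLDN1, in set 2 (4.14%). By the moderated test 1 member rose and 1 fell with All gRNA, where 10.8% of all genes passed, and the same number did so with gRNA 4 (11%). In set 1, 4 rose and 1 fell (37.8% of all genes passed), and in set 2, 3 rose and 2 fell (52.4%). Because the filter keeps a gene that is high in one group, these counts are a description.

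**Figure D2:**
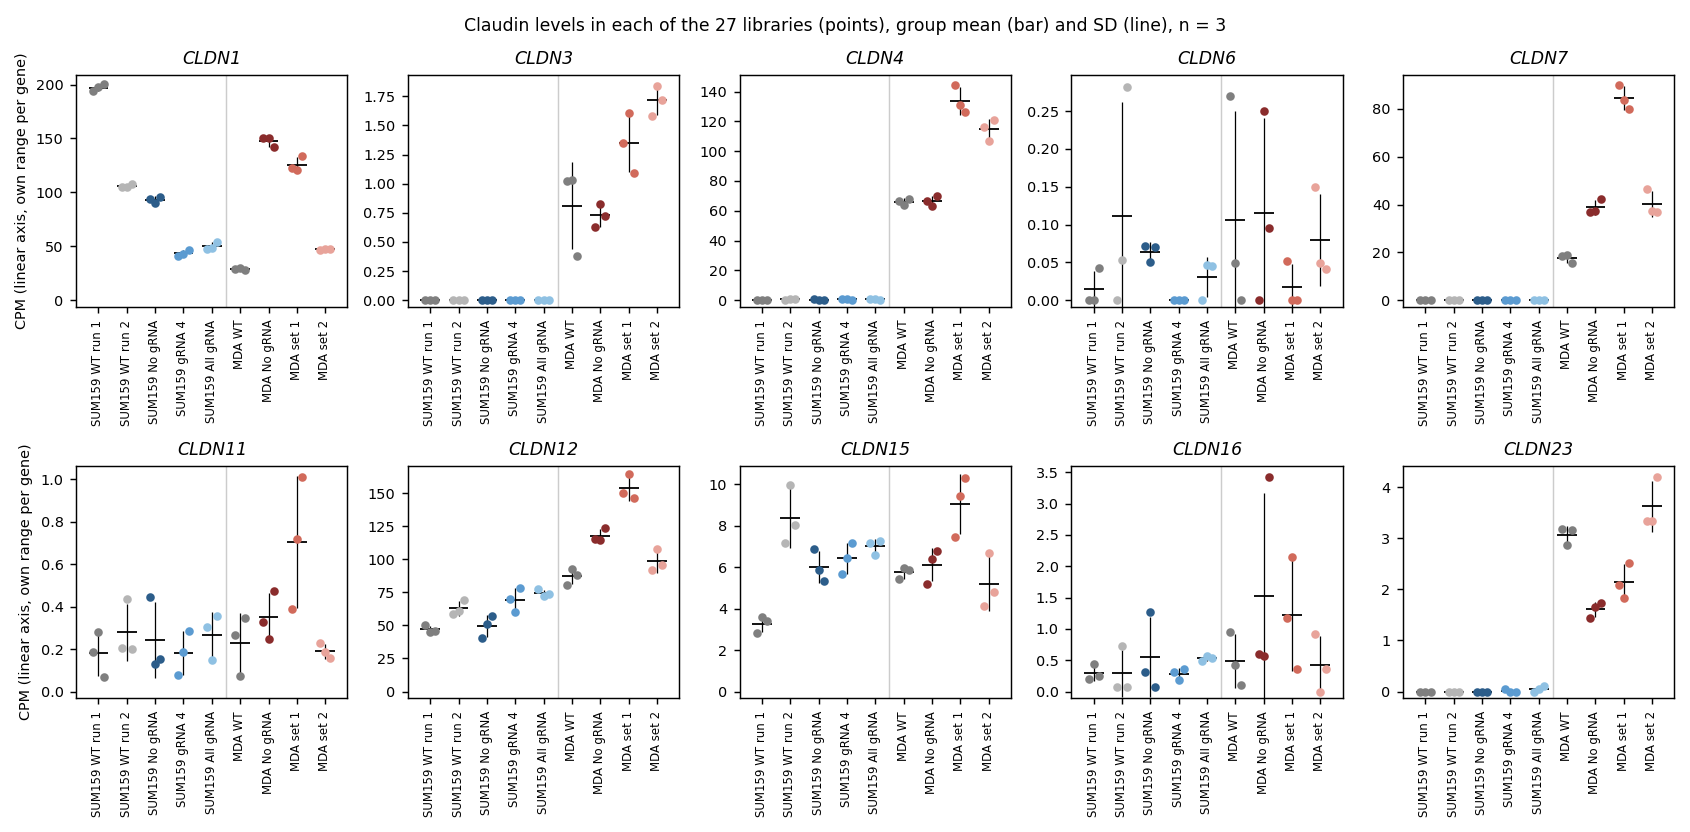
CPM of each claudin in each of the 27 libraries (points), with the group mean (bar) and SD (line, n = 3), on a linear axis with its own range for each gene. CLDN3, CLDN4, CLDN7 and CLDN23 are near 0 in SUM159, and CLDN4 lies between 107 and 144 CPM in the 6 targeted MDA-MB-231 libraries against 63.5 to 70.2 in No gRNA cells.

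CLDN4, a sealing claudin of simple epithelia, was already expressed in untreated MDA-MB-231 cells and rose in both sets of ZEB1-silenced cells. It measured 66.7, 63.9 and 67.9 CPM in WT libraries, 66.3, 63.5 and 70.2 with No gRNA, 144, 131 and 126 in set 1 and 116, 107 and 121 in set 2. All 6 targeted libraries were above all 6 untargeted ones. Set 1 was 2.01-fold higher than No gRNA (log2 fold change 1.01, SE 0.0663, adjusted p = 5.38e-07) and set 2 1.74-fold higher (log2 fold change 0.80, SE 0.0675, adjusted p = 1.70e-06). Neither passed TREAT. Targeted and No gRNA libraries did not overlap for 49.0% of all genes tested in set 1 and 59.7% in set 2, and for 29.5% in either SUM159 group, and both targeted groups of a line share their No gRNA controls. The 6 targeted libraries differed from the 3 No gRNA libraries at p = 0.0119 in an unadjusted exact permutation test, two-sided, the smallest value that 6 against 3 can give. Set 2 was lower than set 1 by the moderated test (log2 fold change -0.21, SE 0.0603, adjusted p = 0.0132), a difference that was lost without set 1 replicate 1 (adjusted p = 0.118) or set 2 replicate 2 (0.0660). For No gRNA against WT the CLDN4 log2 fold change was small, at -0.045 (95% interval -0.21 to 0.12, adjusted p = 0.640).

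CLDN3, which lies beside CLDN4 on chromosome 7 with 29272 bp between the genes, was far lower. In CPM its targeted MDA-MB-231 libraries were again the highest, but narrowly, at 1.10 or more in set 1 against 1.03 or less in WT. The MDA-MB-231 libraries held 16.8, 17.9 and 6.92 estimated counts in WT cells, 11.2, 15.1 and 13.1 with No gRNA, 22.1, 27 and 17.1 in set 1 and 27.1, 32.1 and 27.1 in set 2. Both sets lay above No gRNA without overlap, whereas WT and No gRNA overlapped. The rise passed the test in set 2 (log2 fold change 1.23, SE 0.332, adjusted p = 0.00860) and missed it in set 1 (log2 fold change 0.87, SE 0.347, adjusted p = 0.0702), where it passed with all 27 libraries in the fit (adjusted p = 0.0113) or with only the compared groups (0.0472), and the sets were not shown to differ (0.36, 95% interval -0.28 to 1.01). At 6.92 to 32.1 counts per library these fold changes carry wide errors.

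CLDN7, a claudin of the lateral membrane that binds EPCAM, separated the sets. It measured 18.3, 19.0 and 15.4 CPM in WT cells, 36.9, 37.2 and 42.3 with No gRNA, 89.8, 83.7 and 80.0 in set 1 and 46.5, 37.2 and 37.0 in set 2. Every set 1 library was above every other library, and set 2 overlapped No gRNA. Set 1 was 2.19-fold higher than No gRNA (log2 fold change 1.13, SE 0.0939, adjusted p = 3.36e-06), and set 2 was not distinguishable from it (0.072, 95% interval -0.16 to 0.30, adjusted p = 0.595). The difference of set 2 from set 1 was -1.06 (SE 0.0947, adjusted p = 2.88e-06). CLDN7 was also 2.14-fold higher in No gRNA than in WT cells (log2 fold change 1.10, SE 0.124, adjusted p = 1.72e-05). Against WT both sets were therefore higher, by 2.22 and 1.17 on the log2 scale. ZEB1 itself did not separate the sets (set 2 against set 1, log2 fold change -0.18, 95% interval -0.68 to 0.32). Another protein-coding gene on the same strand, ENSG00000262302, spans 1153 of the 1542 bases of the canonical CLDN7 transcript. It held 0 to 31.6 estimated counts per MDA-MB-231 library, against 280.3 to 1466 for CLDN7, and how reads were shared between them was not tested.

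CLDN23, another member measurable in MDA-MB-231 alone, had the opposite order of sets. It measured 3.18, 2.87 and 3.15 CPM in MDA-MB-231 WT cells, 1.44, 1.66 and 1.73 with No gRNA, 2.09, 1.84 and 2.51 in set 1 and 3.34, 3.34 and 4.21 in set 2. No gRNA cells had the lowest values of the line. CLDN23 rose in set 2 (log2 fold change 1.17, SE 0.184, adjusted p = 0.000239) but not by the test in set 1 (0.40, adjusted p = 0.140), and set 2 exceeded set 1 (log2 fold change 0.77, SE 0.175, adjusted p = 0.00325). In No gRNA cells CLDN23 was lower than in WT (log2 fold change -0.98, SE 0.188, adjusted p = 0.00101), so the set 2 value was close to that of WT cells. With WT as the control the set 2 change was 0.20 (adjusted p = 0.363) and the set 1 change turned to -0.57 (adjusted p = 0.0163). Over the members, TREAT called CLDN1 alone between the sets (3.07% of all genes were called), and by the moderated test 1 member was higher and 5 were lower in set 2 (51.5%).

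CLDN1, the claudin whose loss breaks the epidermal barrier, was the only tested member that fell in all 4 comparisons with No gRNA. In SUM159 it measured 94.2, 89.8 and 96.0 CPM with No gRNA, 47.9, 48.8 and 54.1 with All gRNA and 40.7, 43.1 and 46.4 with gRNA 4, so that no targeted library reached a No gRNA library. The fall was 2.17-fold with gRNA 4 (log2 fold change -1.12, SE 0.0676, adjusted p = 8.74e-07) and 1.86-fold with All gRNA (log2 fold change -0.89, SE 0.0653, adjusted p = 4.13e-06). In MDA-MB-231 it measured 150.1, 150.2 and 142 CPM with No gRNA, 123, 121 and 134 in set 1 and 46.3, 47.9 and 47.4 in set 2. Set 1 fell by 1.17-fold (log2 fold change -0.23, SE 0.0468, adjusted p = 0.00276) and set 2 by 3.07-fold (log2 fold change -1.62, SE 0.0581, TREAT adjusted p = 2.28e-05). Set 2 was below set 1 (-1.39, SE 0.0598, TREAT adjusted p = 0.00136). In bulk RNA, fewer cells with a transcript and less of it per cell cannot be told apart.

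The level of CLDN1 moved as far between control groups as with silencing. WT cells measured 194, 197 and 201 CPM in SUM159 run 1, 105, 105 and 107 in SUM159 run 2 and 28.8, 29.4 and 28.4 in MDA-MB-231. No gRNA was lower than WT in SUM159 (log2 fold change -1.09, SE 0.0543, adjusted p = 5.29e-08) and higher in MDA-MB-231, by 4.91-fold (log2 fold change 2.30, SE 0.0654, TREAT adjusted p = 1.45e-07). The 2 sets of SUM159 WT libraries differed by -0.91 (run 2 against run 1, SE 0.0495, adjusted p = 2.99e-09). With WT as the control in place of No gRNA, CLDN1 was lower in the targeted SUM159 groups, by 2.20 with gRNA 4 and 1.98 with All gRNA on the log2 scale, and higher in MDA-MB-231 set 1 (2.07, adjusted p = 3.39e-10) and set 2 (0.68, adjusted p = 3.60e-05). In order of mean CPM, SUM159 WT run 1 was highest, then MDA-MB-231 No gRNA, set 1, SUM159 WT run 2 and SUM159 No gRNA, none of which overlapped the next. SUM159 All gRNA, set 2 and SUM159 gRNA 4 followed with overlapping neighbours, and MDA-MB-231 WT was lowest. The mean response of the targeted groups was not shown to differ between the lines (difference 0.059, 95% interval -0.076 to 0.19, adjusted p = 0.563).

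Across all members, No gRNA against WT gave 0 TREAT calls in SUM159 (1.53% of all genes were called) and 1 higher, CLDN1, in MDA-MB-231 (3.60%). By the moderated test 1 rose and 1 fell in SUM159 (42.9% of all genes) and 3 rose and 1 fell in MDA-MB-231 (53.8%). Between the runs of SUM159 WT cells TREAT called 0 members (6.47% of all genes), and 3 members were higher and 1 lower by the moderated test (58.8%). Of these, the CLDN4 call (log2 fold change 1.54, adjusted p = 0.0409) was lost with no filter (adjusted p = 0.0617) and in all fits that left out 1 WT library except that without run 2 replicate 1 (adjusted p between 0.0656 and 0.147). No gRNA and WT cells of a line differ in vector and selection, and the part of each was not tested.

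**Figure D3:**
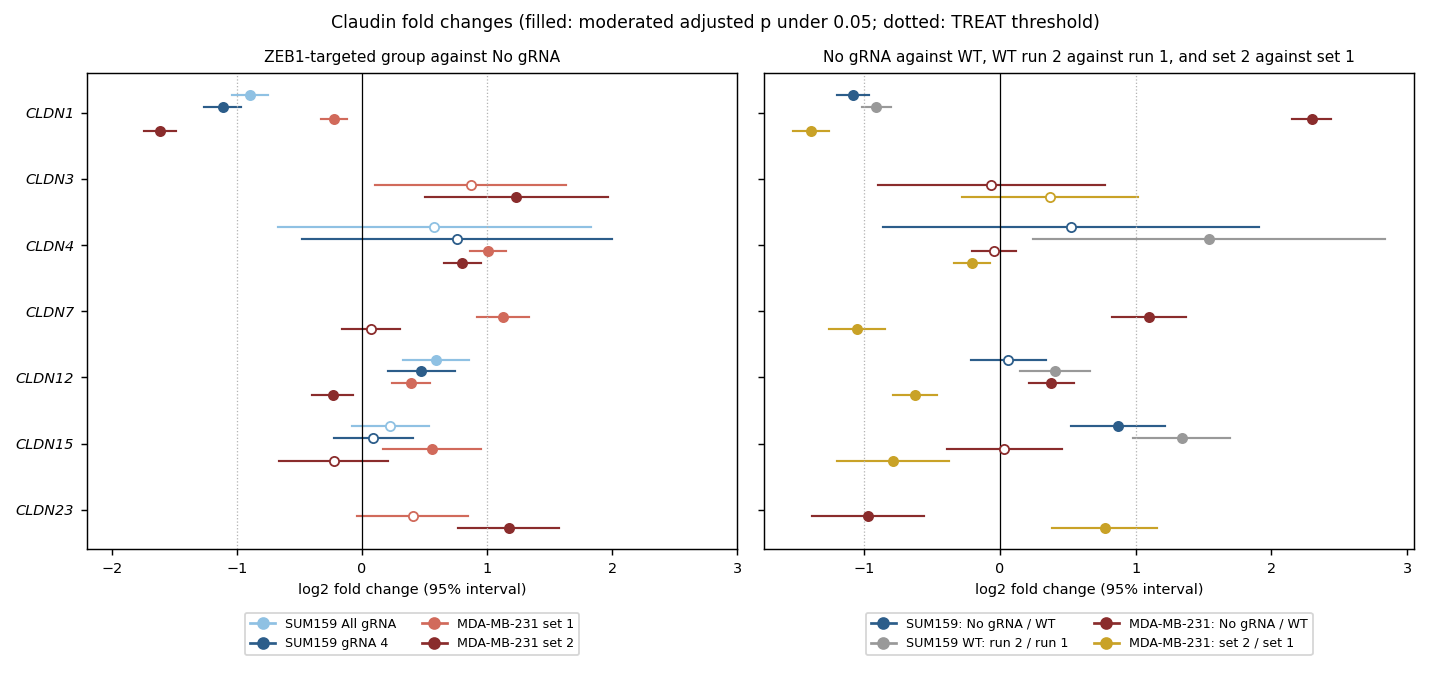
Log2 fold changes with 95% intervals for 7 claudins that passed the filter in at least 1 line (CLDN16, with intervals several log2 units wide, is left out), for targeted groups against No gRNA (left) and for control groups and the 2 sets (right). Filled points passed the moderated test, and dotted lines mark the TREAT threshold. CLDN1 lies below 0 in all 4 targeted comparisons and spans -1.39 to 2.30 on the right.

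CLDN12, a widely expressed claudin that lacks the usual PDZ-binding end, rose in 3 of the 4 targeted comparisons and fell in the other. In SUM159 it measured 40.7, 51.3 and 57.2 CPM with No gRNA, 77.2, 72.0 and 73.7 with All gRNA and 69.8, 59.8 and 78.0 with gRNA 4. All targeted libraries were above the No gRNA libraries, narrowly so for gRNA 4 replicate 2. The log2 fold change was 0.59 with All gRNA (SE 0.121, adjusted p = 0.00847) and 0.47 with gRNA 4 (SE 0.122, adjusted p = 0.0288). The gRNA 4 call was lost when No gRNA replicate 1 or 2, or gRNA 4 replicate 1 or 3, was left out (adjusted p between 0.0634 and 0.104). In MDA-MB-231 CLDN12 measured 115, 115 and 123 CPM with No gRNA, 150.3, 164 and 146 in set 1 and 91.5, 108 and 95.5 in set 2, 3 ranges that did not overlap. It rose in set 1 (log2 fold change 0.39, SE 0.0688, adjusted p = 0.000959) and fell in set 2 (log2 fold change -0.24, SE 0.0743, adjusted p = 0.0196), where the call was lost without No gRNA replicate 3, set 2 replicate 1 or set 2 replicate 3. Averaged over both targeted groups, the response in MDA-MB-231 was lower than in SUM159 (log2 fold change -0.48, SE 0.125, adjusted p = 0.00718), the only member of the 8 tested to pass this test, where 25.4% of all genes did. CLDN3, CLDN7 and CLDN23 were among the 8 but had 0 counts in SUM159 No gRNA cells, so for them the test cannot compare responses. The CLDN12 call was lost without replicate 1 of every group (-0.30, adjusted p = 0.175) and without replicate 3 (-0.48, adjusted p = 0.0568). TREAT called 0 members there (0.954% of all genes).

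CLDN15, the cation channel claudin, did not pass the test in the targeted SUM159 groups, with a log2 fold change of 0.09 for gRNA 4 (95% interval -0.22 to 0.40) and of 0.23 for All gRNA (-0.081 to 0.53). With WT as the control both passed, at 0.96 (adjusted p = 0.000403) for gRNA 4 and 1.09 (adjusted p = 0.000123) for All gRNA. In MDA-MB-231 it measured 5.21, 6.4 and 6.76 CPM with No gRNA, 7.47, 9.41 and 10.3 in set 1 and 4.12, 6.68 and 4.81 in set 2. Set 1 was higher than No gRNA (log2 fold change 0.56, SE 0.179, adjusted p = 0.0284), a call lost in 4 of the 6 fits that left out a library, those without No gRNA replicate 1 or 2 or set 1 replicate 2 or 3. Set 2 was lower than set 1 (log2 fold change -0.79, SE 0.189, adjusted p = 0.00443). The largest differences of CLDN15 were between SUM159 controls. WT libraries measured 2.83, 3.58 and 3.39 CPM in run 1 and 7.16, 9.94 and 8.01 in run 2 (log2 fold change 1.34, SE 0.165, adjusted p = 9.86e-06), and No gRNA exceeded WT of the same run (log2 fold change 0.87, SE 0.158, adjusted p = 0.00100).

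The remaining 3 members gave no call. CLDN6, an embryonic claudin, stayed between 0 and 4.54 estimated counts in all 27 libraries, and CLDN11, known from myelin and testis, between 1.24 and 15.8. CLDN16 was tested in MDA-MB-231 and held 10.5, 10.2 and 61.9 counts with No gRNA, 19.2, 36.2 and 5.65 in set 1 and 15.8, 0 and 5.62 in set 2. One No gRNA library, replicate 3, was far above the others, and the interval in set 1 was -2.13 to 1.99 around -0.072. Without that library the set 1 value was 0.77. No difference in CLDN16 was detectable at this depth. CLDN6 and CLDN11 were not in the fit. CLDN11 held 5.80, 4.51 and 8.53 counts with No gRNA, 6.35, 12.1 and 15.8 in set 1 and 3.90, 3.23 and 2.49 in set 2, where set 2 lay below both others without overlap (p = 0.1 for each in an unadjusted exact permutation test, two-sided, the smallest that 3 against 3 can give). The annotated CLDN16 gene begins 95 bp from the CLDN1 start, on the opposite strand, while the canonical start sites of the genes lie 65717 bp apart.

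The 2 lines differed in the level of the claudins that define the subtype. CLDN3 had 0 counts in all 15 SUM159 libraries, which allows up to 0.190 CPM, and CLDN7 and CLDN23 held at most 3.11 and 1.96 estimated counts. CLDN4 was low, at 0.0996 to 1.10 CPM, and 1 WT run 1 library and 1 No gRNA library lay under the floor. WT cells of the same run are compared next. CLDN4 was at 0.742 ± 0.358 CPM in SUM159 and 66.2 ± 2.06 in MDA-MB-231 (SD, n = 3, log2 fold change -6.54, SE 0.302, TREAT adjusted p = 6.05e-06). CLDN7 was at 0.0656 ± 0.114 and 17.6 ± 1.88 CPM, without a p-value here because it passed the filter through MDA-MB-231 alone. CLDN3 was at least 4.28-fold lower and CLDN23 at least 16.2-fold lower in SUM159, taking 3 counts per library as the floor. CLDN1 was higher in SUM159 (1.87, SE 0.0557, TREAT adjusted p = 1.19e-05). Of the 6 members tested TREAT called 1 higher and 3 lower in SUM159 (29.1% of all genes were called), and 2 were higher and 4 lower by the moderated test (75.5%). The filter keeps a gene that is high in 1 line alone, as CLDN7 and CLDN23 were, so these counts are a description. No cells of another subtype were compared here, so these levels do not place either line against the claudin-low label.

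No rise of CLDN3, CLDN4 or CLDN7 was detectable in the ZEB1-silenced SUM159 groups. CLDN3 stayed at 0 counts. CLDN7 held 3.08, 0.566 and 0 counts with gRNA 4 and 0, 3.09 and 0 with All gRNA against 0 in every No gRNA library. CLDN4 measured 0.815, 0.383 and 0.0996 CPM with No gRNA, 0.490, 0.648 and 0.390 with All gRNA and 0.724, 0.596 and 0.427 with gRNA 4, so the groups overlapped and the intervals were wide (log2 fold change with All gRNA -0.67 to 1.83, and with gRNA 4 -0.48 to 1.99). The All gRNA value of 0.58 turned to -0.18 without No gRNA replicate 3. Between All gRNA and gRNA 4 no member differed by either test, where 0% of all genes were called by TREAT and 0.944% passed the moderated test.

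Other genes of the tight junction were measured in the same libraries. Of 23 partners of the claudins listed by function, 16 were tested in SUM159, and 6 rose and 0 fell with All gRNA, where 10.8% of all genes passed, and 4 rose and 0 fell with gRNA 4 (11%). In both SUM159 groups TREAT called F11R, the junctional adhesion molecule JAM-A (log2 fold change 2.76 with All gRNA and 2.79 with gRNA 4), and LSR, the angulin of tricellular contacts (3.32 and 3.46). It also called EPCAM, which binds CLDN7 and had 0 counts in all 3 No gRNA libraries, so that no fold is given. EPCAM held 16.3, 14.4 and 16.2 estimated counts with All gRNA and 17.9, 16.2 and 23.5 with gRNA 4. In MDA-MB-231 its mean was 12.6 CPM with No gRNA, 290 in set 1 and 380 in set 2. In MDA-MB-231 22 partners were tested, of which 12 rose and 3 fell in set 1 (37.8% of all genes passed) and 12 rose and 1 fell in set 2 (52.4%). The share that passed was above that of all genes in set 1 and near it in set 2. Of all genes, 3210 rose and 2725 fell in set 1, and 4293 rose and 3942 fell in set 2. OCLN, the first tight junction strand protein described, rose in both sets (1.62 and 1.42) and MARVELD3, a related protein, as well (3.79 and 3.89), all called by TREAT. MARVELD3 averaged 5.35 estimated counts with No gRNA, and its lowest library there, at 0.0984 CPM, lay under the floor. The size of its rise is therefore uncertain. The median log2 fold change over the partners was 0.89 in set 1 and 0.83 in set 2 against medians of all genes of -0.0080 and -0.012, and 0.035 and 0.054 in SUM159 All gRNA and gRNA 4. The OCLN response was larger in MDA-MB-231 than in SUM159 (difference 1.91, TREAT adjusted p = 0.0496), and the LSR response smaller (-2.15, TREAT adjusted p = 0.0309). F11R was also higher in No gRNA than in WT cells (log2 fold change 3.05 in SUM159 and 1.33 in MDA-MB-231). TJP1, a scaffold protein of the junction, rose less, at 0.64 in set 1 and 0.25 in set 2.

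Among 15 transcription factors listed for their part in epithelial or mesenchymal state, 11 were tested in MDA-MB-231, of which 8 rose and 1 fell in set 1 (37.8% of all genes passed) and 5 rose and 3 fell in set 2 (52.4%). In SUM159 12 were tested, of which 3 rose and 1 fell with All gRNA (10.8%) and 3 rose and 2 fell with gRNA 4 (11%). These counts include ZEB1 itself. SNAI2, a repressor that reads the same E-box as ZEB1, rose in set 1 (2.52, TREAT adjusted p = 5.61e-08) and less in set 2 (1.21, adjusted p = 6.19e-08), and the sets differed (-1.32, TREAT adjusted p = 0.00200). In SUM159 SNAI2 rose slightly with All gRNA (0.28) and gRNA 4 (0.22). KLF4 and EHF, from the same list, rose in set 1 (0.42 and 0.55). Both fell in set 2 (KLF4 -1.25, adjusted p = 5.63e-08, and EHF -0.79, adjusted p = 8.65e-05). KLF4 also fell in SUM159 gRNA 4 cells (-0.45, adjusted p = 0.00530). TREAT called EHF higher in both targeted SUM159 groups, at 3.70 for gRNA 4 and 3.14 for the pool. OVOL1, an epithelial repressor of ZEB1, had 0 counts in all 3 MDA-MB-231 No gRNA libraries, 32.4, 33.8 and 14.6 in set 1 and 7.37, 6.46 and 3.23 in set 2, and no fold is given.

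The claudins of a cell can be compared with each other only per transcript length, so CPM was divided by the length in kb of the canonical transcript and summed over all 24 claudin genes. In SUM159 CLDN1 made up 77.5% ± 0.728 (SD, n = 3) of the sum in WT run 1, 54.5% ± 1.72 in WT run 2, 57.9% ± 2.09 with No gRNA, 34.5% ± 1.72 with All gRNA and 33.1% ± 2.00 with gRNA 4. CLDN12 took 18% ± 1.22 in WT run 1, 31.6% ± 1.63 in WT run 2, 30.0% ± 4.09 with No gRNA, 49.7% ± 1.70 with All gRNA and 51.3% ± 2.91 with gRNA 4, so that it passed CLDN1 as the most abundant claudin of the targeted cells. The sum was 73.8 ± 0.656 CPM per kb in WT run 1, 56.3 ± 2.37 in WT run 2, 46.8 ± 1.70 with No gRNA, 42.3 ± 1.36 with All gRNA and 38.1 ± 3.51 with gRNA 4. In MDA-MB-231 CLDN4 was first in WT cells (42.9% ± 1.86), behind CLDN1 with No gRNA (26.5% ± 0.637 against 28.9% ± 1.85), and first again in set 1 (35.1% ± 1.51) and set 2 (47.2% ± 2.39). The sum was 91.0 ± 1.14 CPM per kb in WT, 148.3 ± 4.81 with No gRNA, 224.4 ± 6.17 in set 1 and 143.1 ± 2.40 in set 2. The set 2 and No gRNA sums were alike to within their SDs added together, while CLDN4 took more and CLDN1 less of the set 2 sum.

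**Figure D4:**
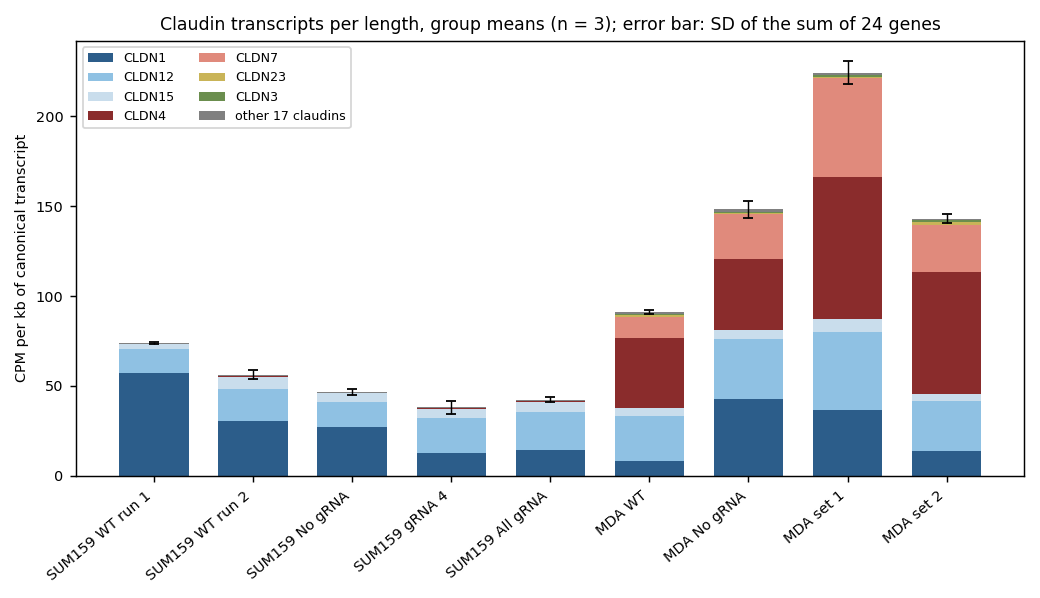
Claudin levels per transcript length by group (stacked bars, means of 3 libraries, CPM per kb), with the SD of the sum over 24 claudin genes as the error bar. CLDN1 and CLDN12 make up most of the SUM159 bars, with CLDN15 next, CLDN4 and CLDN7 are visible in MDA-MB-231 alone, and the set 1 bar is highest at 224.4.

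Among the 14 other claudin genes, CLDN10 alone passed the filter, in MDA-MB-231. It held 3.22, 3.24 and 0 estimated counts in WT cells, 12.4, 10.6 and 15.6 with No gRNA, 8.16, 13 and 12.3 in set 1 and 4.90, 3.27 and 2.45 in set 2, and fell in set 2 (log2 fold change -1.63, SE 0.546, adjusted p = 0.0263). No gRNA was itself above WT by the moderated test (log2 fold change 2.72), and the WT and set 2 counts lay near the floor. Of the canonical CLDN10 exons 1558 bases lie within the span of DZIP1 on the other strand. CLDN2, a pore-forming claudin, was not tested but is given here, chosen after its values were seen, because its groups were far apart. It held 7.94, 3.99 and 10.6 counts in MDA-MB-231 WT cells, 8.15, 7.06 and 12.1 with No gRNA, 0 in each library of set 1 and 1.01, 1.01 and 1.01 in set 2. Of the canonical CLDN2 exons 2961 bases lie within the span of MORC4 on the other strand, and the strand setting of the libraries is not given in the sources used here.

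The genes most like each member were named by Pearson's r of log2 CPM, centred within each line. Over 24 libraries of both lines CLDN1 was closest to MED1 (r = 0.953), CLDN12 to TIMP1 (0.907), CLDN15 to SRCIN1 (0.897) and CLDN4 to C6orf132 (0.812), among 13775 genes. Over the 12 MDA-MB-231 libraries CLDN7 was closest to PLSCR3 (0.991), CLDN23 to MAEA (0.979), CLDN3 to LINC02915 (0.911) and CLDN16 to PFKM (0.900), among 15721 genes. Between members in MDA-MB-231, r was 0.885 for CLDN7 and CLDN12, 0.741 for CLDN3 and CLDN4, and -0.832 for CLDN1 and CLDN23. In SUM159, over 12 libraries, CLDN1 had r = -0.816 with CLDN12 and -0.876 with CLDN15. The points share 4 group means per line, so these values describe the groups more than single libraries.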

How the data were processed

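Polyadenylated RNA of 27 samples was measured by RNA-seq. The deposited file gives, for each gene, an estimated count that the authors made with Salmon and tximport on GRCh38 from 50 bp single-end reads, scaled by transcript length and library size and not normalized between libraries. The Salmon version and the strand setting are not given in the sources used here. Samples were grouped by the labels, and all value columns were used. Following the study's methods, genes that passed filterByExpr (minimum count 10) were fitted by voom-limma with TMM scaling (R 4.3.3, limma 3.58.1, edgeR 4.0.16), with 1 fit for the 12 libraries of a line. TREAT used a log2 fold change of 1, and p-values were adjusted by Benjamini-Hochberg over all genes tested, at 0.05. Wild type comparisons between runs or lines, and the difference of responses between lines, used fits of the libraries concerned. Estimated counts were rounded for edgeR's quasi-likelihood test and DESeq2 1.42.0, which were alternatives, with other scalings, no filter, other samples in the fit, WT as the control, the replicate number as a block, and each replicate left out. Levels are CPM with TMM scaling over all 27 libraries, and log2 CPM had a prior count of 2. The scripts were tested on simulated data. All members were named. From lists made by function (other claudins, tight junction partners, transcription factors), some genes that passed a test or are a known partner or regulator were named. Other listed genes that passed a test are given by count alone. The members and lists were chosen with earlier results of these data known. Columns of the file held no comparisons of the authors.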

Additional observations from a re-analysis of the deposited data

Results flagged for a closer look

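The response of CLDN12 to ZEB1 gRNAs differed between the cell lines. The mean log2 fold change of both targeted groups against No gRNA was lower by 0.48 in MDA-MB-231 than in SUM159 (-0.48, voom-limma interaction, moderated test, adjusted p = 0.00718). The 2 sets of MDA-MB-231 differed in direction, with CLDN12 at 0.39 in set 1 and -0.24 in set 2, against 0.59 and 0.47 in SUM159. Leaving out replicate 1 of every group gave -0.30 (adjusted p = 0.175) and leaving out replicate 3 gave -0.48 (adjusted p = 0.0568). Cell line and run cannot be told apart in this comparison.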

How the results depend on the processing

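Over the alternatives, 834 values of single claudins kept their direction and side of the threshold, 29 lost a call, 6 gained one and 25 changed sign. Tested against 0 instead of a log2 fold change of 1, limma and edgeR's quasi-likelihood test each gave more claudins called, 2 in SUM159 All gRNA, 2 with gRNA 4, 5 in set 1, 5 in set 2, 6 between the sets, 2 for No gRNA against WT in SUM159, 4 in MDA-MB-231, 4 between runs and 1 for the difference between lines. With WT as the control, TREAT called 1 in SUM159 All gRNA, 1 with gRNA 4, 2 in set 1 and 0 in set 2. Past the moderated test, gRNA 4 had 1 with only the compared groups in the fit and 1 to 2 when a replicate was left out, and the difference between lines had 2 with no filter and 0 to 1 when a replicate was left out. The call gained with no filter was CLDN3, which had 0 counts in SUM159.

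With WT as the control, values changed sign for CLDN1 (2.07 in set 1, 0.68 in set 2), CLDN23 (-0.57 in set 1), CLDN16 (1.41 in set 1) and CLDN12 (0.14 in set 2). Upper quartile scaling turned CLDN7 in set 2 to -0.021 and CLDN4 for No gRNA against WT in MDA-MB-231 to 0.0082, and the latter was 0.0094 with all 27 libraries in the fit. Leaving out 1 library at a time gave ranges that crossed 0 for CLDN4 in SUM159 All gRNA (-0.18 to 1.21), CLDN16 in set 1 (-0.63 to 0.77, with 0.59 without set 1 replicate 3) and CLDN7 in set 2 (-0.033 to 0.14). For No gRNA against WT they did so for CLDN12 (-0.047 to 0.20) and CLDN4 (-0.11 to 1.28) in SUM159, and for CLDN15 (-0.043 to 0.14) and CLDN3 (-0.55 to 0.18) in MDA-MB-231. For the difference between lines, CLDN15 was 0.0053 with edgeR, 0.015 with DESeq2 and 0.00050 with no filter, and leaving out a replicate number gave -0.11 to 0.18 for CLDN15, -2.48 to 0.55 for CLDN16 and -0.38 to 0.82 for CLDN4. Of these, the moderated test in the reported fit had called CLDN1 in both sets and CLDN12 in set 2. The causes were not tested.

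Replicate numbers did not pair samples (r of deviations -0.0831 to 0.0527 over 30 pairs, 0 over 0.1). With the replicate number as a block the count of claudins past the moderated test was 5 in set 1 and 5 in set 2, and of the calls only CLDN4 between runs was lost to the block (adjusted p = 0.0506), a call that other alternatives lost as well. Depth limits CLDN3, CLDN6, CLDN11 and CLDN16, and CLDN4 and CLDN7 in SUM159.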
